A study of Homo sapiens with 6 samples.

Results

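The 14-3-3 proteins are a family of 7 human genes, YWHAB (14-3-3 beta), YWHAE (epsilon), YWHAG (gamma), YWHAH (eta), YWHAQ (theta), YWHAZ (zeta) and SFN (sigma, or stratifin). All 7 were found by their gene numbers among the 17149 genes listed in each expression table, and all 7 were among the 11135 genes that passed the minimum level for the test (1 FPKM or more in 3 libraries or more). RNA came from MDA-MB-231, an established human cell line from triple negative breast cancer, 48 h after transfection with siRBCK1 (3 libraries) or siControl (3 libraries). RBCK1 is a ubiquitin ligase of the linear ubiquitin chain assembly complex, and the study asked how its loss acts on the Hippo/YAP pathway in these cells. The labels name no other agent. The sources used here do not say which siRNA against RBCK1 made the libraries, nor whether the 3 libraries of a group came from separate cultures, so the p-values measure the spread between libraries, which may be technical.

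14-3-3 proteins form dimers that dock on phosphorylated serine and threonine residues of other proteins, called clients, and hide, hold or reshape them. In the Hippo pathway the LATS kinases phosphorylate the transcription co-activators YAP and TAZ, and 14-3-3 proteins then keep them in the cytoplasm. Further clients include RAF kinases, the cell death protein BAD, CDC25 phosphatases and FOXO factors. SFN differs from the other members in being largely restricted to epithelial cells.

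The labels were checked first. RBCK1 itself stood at 41.5, 46.2 and 45.6 FPKM (fragments per kilobase of transcript, scaled by the total of the library) in the siRBCK1 libraries and at 65.0, 63.6 and 73.4 FPKM in the siControl libraries, so that 66.0% of the siControl level remained (log2 fold change -0.59, adjusted p = 6.55e-05 by limma). VIM, a mesenchymal marker, was between 1894 and 2010 FPKM in the 6 libraries, and CDH1, ESR1 and PGR, which mark luminal epithelium, were at 0.25 FPKM or less, but SPARC, another mesenchymal marker, was also at 0.41 FPKM or less. Of the 9 luminal markers, 5 passed the minimum level, with KRT8 at 639 FPKM in siRBCK1 cells and 729 FPKM in siControl cells. KRT8 was lower in siRBCK1 cells (log2 fold change -0.19, adjusted p = 0.0205 by limma), a call lost without any 1 of siRBCK1 replicates 1 (0.0773), 2 (0.0529) or 3 (0.0658), and its value turned to 0.02 after quantile normalization. The part of these markers in the results on the family was not tested. ERBB2 averaged 18.2 FPKM in siRBCK1 cells and 13.0 FPKM in siControl cells, and passed the test. Of the mesenchymal markers FN1 was higher (31.0 FPKM in siRBCK1 cells and 16.9 FPKM in siControl cells), ZEB1 was higher (5.13 FPKM in siRBCK1 cells and 3.95 FPKM in siControl cells) and CD44 was lower (184 FPKM in siRBCK1 cells and 219 FPKM in siControl cells). After quantile normalization ZEB1 (adjusted p = 0.0653 by limma) and CD44 (0.0542) did not pass, nor did ZEB1 with the trend with gene length and GC content removed (log2 fold change 0.07, adjusted p = 0.361). Leukocyte markers summed to 2.44 to 2.69 FPKM in siRBCK1 libraries and 3.47 to 3.97 FPKM in siControl libraries, nearly all of it CD14, and endothelial markers to 0.64 to 0.69 FPKM in siRBCK1 libraries and 0.46 to 0.57 FPKM in siControl libraries. In bulk RNA, fewer cells of a type and less RNA per cell cannot be told apart. Across all tested genes the median log2 fold change was 0.11, so a gene that kept pace with the middle of the table had that value and not 0.

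Promoters are shown for a pair of members that fell, YWHAB and SFN, and for a pair that rose, YWHAG and YWHAH, since the genes of each pair moved in the same direction, although YWHAH lost its call in some settings. They are the 250 bases before and 50 bases after the RefSeq start (GRCh38.p14), written in the direction of transcription. YWHAB lies at chr20:44885455-44885754 on the plus strand, SFN at chr1:26862899-26863198 on the plus strand, YWHAG at chr7:76358942-76359241 on the minus strand and YWHAH at chr22:31944285-31944584 on the plus strand. Capitals mark any match to a set of known promoter motifs on either strand. One is the GC box, with the letters GGGCGG. Another is the CCAAT box, searched as CCAAT itself. The ETS core was searched as CGGAAG on both strands. The cAMP response element was searched as TGACGTCA, which reads alike on both strands. The E-box was searched as CACGTG, which also does. The core bound by TEAD factors, which are the DNA-binding partners of YAP, was searched as GGAATG.
YWHAB: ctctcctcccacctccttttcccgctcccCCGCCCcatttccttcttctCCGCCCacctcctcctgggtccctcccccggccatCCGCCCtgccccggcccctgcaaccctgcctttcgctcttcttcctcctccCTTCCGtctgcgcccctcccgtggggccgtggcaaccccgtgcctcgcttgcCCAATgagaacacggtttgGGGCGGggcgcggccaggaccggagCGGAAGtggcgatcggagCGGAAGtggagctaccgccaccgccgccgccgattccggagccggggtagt
SFN: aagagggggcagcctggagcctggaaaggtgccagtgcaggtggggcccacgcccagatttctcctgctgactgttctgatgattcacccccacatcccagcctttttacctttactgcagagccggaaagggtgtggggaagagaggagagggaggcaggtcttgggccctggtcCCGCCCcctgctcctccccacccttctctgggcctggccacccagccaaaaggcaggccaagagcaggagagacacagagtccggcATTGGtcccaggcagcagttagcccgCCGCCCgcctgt
YWHAG: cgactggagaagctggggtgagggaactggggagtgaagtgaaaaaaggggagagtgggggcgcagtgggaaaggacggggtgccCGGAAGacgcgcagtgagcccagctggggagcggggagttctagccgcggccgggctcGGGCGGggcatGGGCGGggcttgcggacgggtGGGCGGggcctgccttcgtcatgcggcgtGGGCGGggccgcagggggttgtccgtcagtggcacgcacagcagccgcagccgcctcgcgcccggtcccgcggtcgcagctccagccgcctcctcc
YWHAH: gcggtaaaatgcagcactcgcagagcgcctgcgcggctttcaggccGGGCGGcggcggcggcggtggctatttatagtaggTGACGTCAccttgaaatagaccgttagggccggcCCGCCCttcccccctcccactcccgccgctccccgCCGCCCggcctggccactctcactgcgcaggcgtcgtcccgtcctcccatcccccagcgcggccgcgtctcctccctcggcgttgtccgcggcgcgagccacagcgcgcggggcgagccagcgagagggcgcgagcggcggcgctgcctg

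A promoter was found for 6 of the 7 members, all but YWHAZ, among 35116 promoters of this length. The TEAD core was in none of the 6, where 4928 of all 35116 promoters held it, and the E-box was also in none, where 7.26% of all promoters held it. GC boxes were in all 6, with 4 matches each in YWHAB, YWHAG and YWHAQ, 3 in YWHAH, 2 in SFN and 1 in YWHAE, where 45.0% of all promoters held at least 1. The ETS core matched 3 times in YWHAB and 1 time each in YWHAG, YWHAE and YWHAQ (19.5% of all promoters), and the CCAAT box 3 times in YWHAQ, where 1 match overlaps a GC box, and 1 time each in YWHAB and SFN (34.6%). The cAMP response element was present only in YWHAH among the 6, and in 1.85% of all promoters. SFN had the lowest GC content of the 6 (63.7%, with 7 CG pairs), and YWHAB (70.7%, 29 CG pairs), YWHAG (73.3%, 32 CG pairs) and YWHAH (73.7%, 44 CG pairs) were richer, where the median of all promoters was 58.7%. A match of letters does not show that a factor binds, and no match says only that these letters are not in this window.

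In siRBCK1 cells, 3 members were higher (YWHAG, YWHAH and YWHAQ), 3 were lower (YWHAB, YWHAZ and SFN) and YWHAE did not pass the test. The test was limma on log2(FPKM + 1) with an adjusted p under 0.05 over the 11135 tested genes. Of all tested genes, 36.8% were higher and 17.1% were lower by this test (4103 and 1899 genes), but 2787 were higher and 2703 lower after quantile normalization of the libraries, and 2665 were higher and 2920 lower with trimmed-mean scaling. In the family, quantile normalization added YWHAE to the higher members, and trimmed-mean scaling left YWHAG as the only higher one, with the same 3 members lower in both. With the trend with gene length and GC content removed, YWHAE joined the lower members. The groups did not overlap for the 3 higher and the 3 lower members, and of all tested genes 42.7% were without overlap and higher, and 20.1% without overlap and lower. The median log2 fold change of the 7 members was -0.00, against 0.11 over all tested genes.

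**Figure D1:**
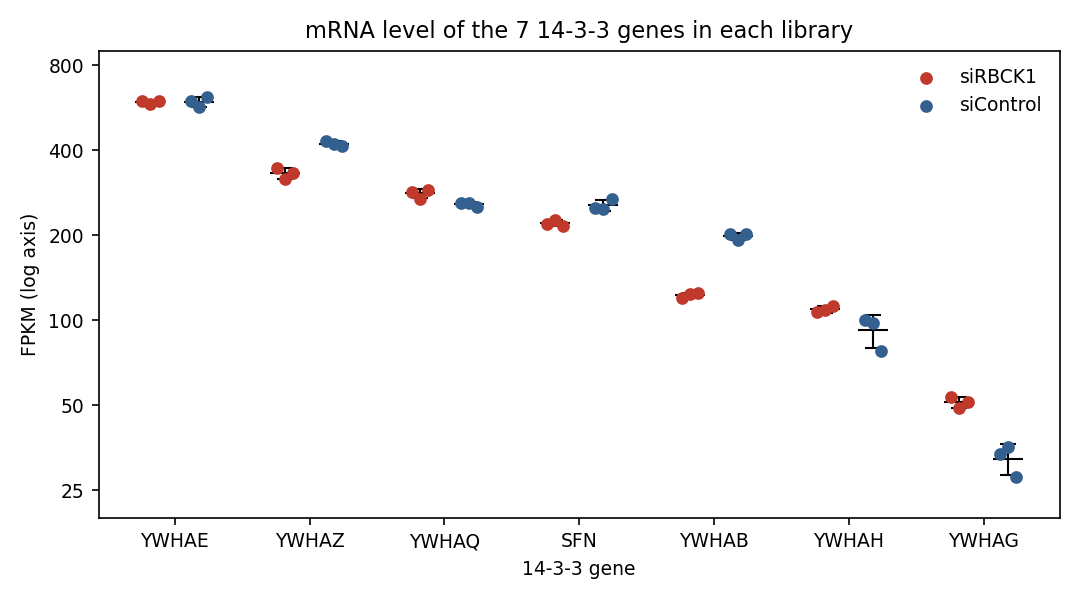
FPKM on a log axis for the 7 genes, with a point for each library, siRBCK1 (red) to the left of siControl (blue), and black bars for the mean and SD of 3 libraries. YWHAB at 120 to 125 FPKM in siRBCK1 libraries lies well under its 192 to 202 FPKM in siControl libraries, YWHAG lies above its siControl values, and YWHAE overlaps.

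YWHAB, which binds RAF kinases among other clients, had the largest fall of the family. Its values were 120, 124 and 125 FPKM in siRBCK1 libraries and 202, 192 and 202 FPKM in siControl libraries. All siRBCK1 libraries were far below all siControl libraries, and the means of 123 ± 2.51 FPKM in siRBCK1 cells and 199 ± 5.87 FPKM in siControl cells (SD, n = 3 each) left 61.9% of the siControl level. The log2 fold change was -0.69 (standard error 0.05, 95% interval -0.79 to -0.58, adjusted p = 2.30e-06 by limma), which ranked 10955 of the 11135 tested genes, counted from the largest rise. The gene (number 7529) lies on chromosome 20 from 44885705 to 44908532 (GRCh38).

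YWHAZ, the isoform best known as an abundant scaffold that binds a wide set of clients, was also lower. It stood at 345, 316 and 333 FPKM in siRBCK1 libraries and at 430, 421 and 414 FPKM in siControl libraries, with no overlap. The means were 331 ± 14.7 FPKM in siRBCK1 cells and 422 ± 7.96 FPKM in siControl cells, a difference of -0.35 on the log2 scale (standard error 0.05, limma adjusted p = 3.01e-04). It was -0.20 after quantile normalization and -0.58 with the length and GC trend removed, past the test in both. The gene (number 7534) lies on chromosome 8 from 100916523 to 100953382.

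SFN, which holds cells in G2 by keeping cyclin B and CDK1 in the cytoplasm, showed the smallest of the 3 falls. It was measured at 220, 226 and 215 FPKM in siRBCK1 libraries, each below the siControl values of 249.6, 248.6 and 269 FPKM. The means were 220.5 ± 5.17 FPKM in siRBCK1 cells and 256 ± 11.3 FPKM in siControl cells (log2 fold change -0.21, standard error 0.05, adjusted p = 0.00543 by limma). It was -0.11 after quantile normalization, -0.34 with trimmed-mean scaling and -0.13 with the length and GC trend removed, past the test in each. SFN is a single-exon gene (number 2810) on chromosome 1 from 26863149 to 26864456.

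YWHAG, which binds CDC25 phosphatases and the Parkinson kinase LRRK2 among its clients, had the largest rise. It stood at 53.6, 49.2 and 51.3 FPKM in siRBCK1 libraries and at 33.6, 35.6 and 27.9 FPKM in siControl libraries. The means were 51.4 ± 2.21 FPKM in siRBCK1 cells and 32.4 ± 4.01 FPKM in siControl cells (1.59-fold). On the log2 scale the difference was 0.66 (standard error 0.08, 95% interval 0.47 to 0.84, adjusted p = 1.18e-04 by limma). The gene (number 7532) lies on chromosome 7 from 76326799 to 76358991.

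YWHAH, an isoform abundant in brain, was at 107, 109 and 113 FPKM in siRBCK1 libraries and at 100.6, 97.7 and 78.0 FPKM in siControl libraries. The siControl replicate 3 value was far below the other siControl values, and YWHAG was also lowest in that library. That library was low over the middle of all genes too. Trimmed-mean scaling divided it by 0.921, and siControl replicates 1 and 2 by 0.974 and 0.977. The part of this in the YWHAH value was not tested. The coefficient of variation of YWHAH was 2.82% in siRBCK1 cells and 13.4% in siControl cells, and that of YWHAG 4.30% in siRBCK1 cells and 12.4% in siControl cells. The means were 109.5 ± 3.09 FPKM in siRBCK1 cells and 92.1 ± 12.3 FPKM in siControl cells. The difference of 0.26 on the log2 scale (standard error 0.08, limma adjusted p = 0.0255) did not hold its call after trimmed-mean scaling (0.13, adjusted p = 0.177 by limma), nor without siRBCK1 replicate 2 (0.26, adjusted p = 0.0556) or siRBCK1 replicate 3 (0.23, adjusted p = 0.0807). Without siControl replicate 3 the difference was 0.14 (adjusted p = 0.0235 by limma). An antisense gene at the same place, YWHAH-AS1, was at 0.00, 0.00 and 0.09 FPKM in siRBCK1 libraries and at 0.28, 0.09 and 0.14 FPKM in siControl libraries, and its reads could not be told apart from those of YWHAH if the counting did not use strand. The gene (number 7533) lies on chromosome 22 from 31944535 to 31957603.

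YWHAQ, known also from T cells, was at 285, 270 and 289.7 FPKM in siRBCK1 libraries and at 261, 259.5 and 252 FPKM in siControl libraries. The groups did not overlap, and the means were 281 ± 10.3 FPKM in siRBCK1 cells and 257 ± 4.84 FPKM in siControl cells. The difference of 0.13 on the log2 scale (standard error 0.05, limma adjusted p = 0.0471) was only 0.02 above the median of all tested genes. Its size and call depended on the scaling. After quantile normalization it was 0.23 (adjusted p = 0.00371 by limma), further above 0 than as deposited. After trimmed-mean scaling it was 0.00 (adjusted p = 0.989), and with the trend with gene length and GC content removed it was -0.00 (adjusted p = 0.945). The call was lost when any 1 library other than siRBCK1 replicate 2 was left out (adjusted p of 0.145 without siRBCK1 replicate 1, 0.192 without siRBCK1 replicate 3, and 0.0835, 0.0537 and 0.0522 without siControl replicates 1, 2 and 3). The gene (number 10971) lies on chromosome 2 from 9583967 to 9630997.

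YWHAE, the most abundant member and a known partner of CDC25 phosphatases, was at 596, 585 and 597 FPKM in siRBCK1 libraries and at 598, 568 and 616 FPKM in siControl libraries. The groups overlapped, with means of 592.5 ± 6.46 FPKM in siRBCK1 cells and 594 ± 23.9 FPKM in siControl cells. The log2 fold change was -0.00 with a 95% interval of -0.11 to 0.11 (adjusted p = 0.965 by limma). Its sign and call moved with the scaling, from 0.18 after quantile normalization (adjusted p = 0.00168 by limma) to -0.13 after trimmed-mean scaling (adjusted p = 0.149) and -0.12 with the length and GC trend removed (adjusted p = 0.0432). The gene (number 7531) lies on chromosome 17 from 1344275 to 1400222.

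**Figure D2:**
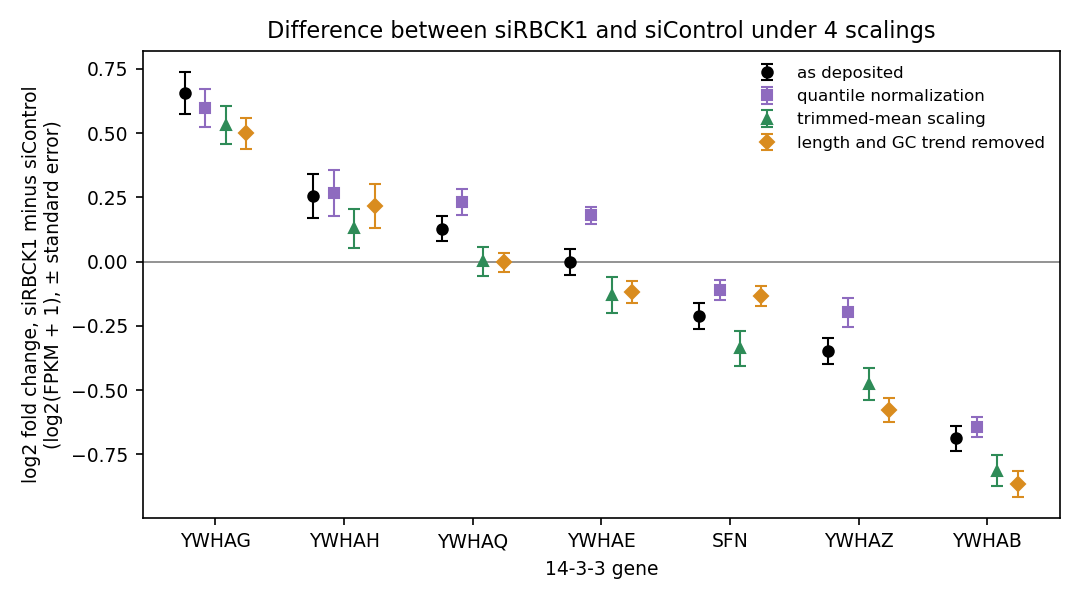
log2 fold change of log2(FPKM + 1), siRBCK1 minus siControl, for each member with its standard error, as deposited and under 3 other scalings. YWHAG stays above 0 (0.50 to 0.66) and YWHAB (-0.87 to -0.64), YWHAZ (-0.58 to -0.20) and SFN (-0.34 to -0.11) below 0 in all 4, whereas YWHAE and YWHAQ cross 0.

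In both groups the order of the members by FPKM was YWHAE, YWHAZ, YWHAQ, SFN, YWHAB, YWHAH and YWHAG. FPKM is per length of transcript, so levels can be set beside each other as a description. The lengths used and the treatment of pseudogene reads were not given in the sources used here. For YWHAZ the longest transcript has 5248 bases, and the one used for its protein 2829. Among the 11135 tested genes YWHAE ranked at 159, YWHAZ at 239, YWHAQ at 341, SFN at 395, YWHAB at 607, YWHAH at 1003 and YWHAG at 2175 by mean FPKM over the 6 libraries. YWHAQ and SFN did not differ beyond their spread in siControl cells, where YWHAQ over SFN was 1.04, 1.04 and 0.937, whereas it was 1.29, 1.20 and 1.34 in siRBCK1 cells. YWHAB over YWHAH was 1.12, 1.14 and 1.11 in siRBCK1 libraries against 2.01, 1.96 and 2.59 in siControl libraries, so these neighbours lay much closer in siRBCK1 cells. YWHAB over YWHAG, the members with the largest fall and the largest rise, was 2.24, 2.51 and 2.44 in siRBCK1 libraries against 6.02, 5.39 and 7.23 in siControl libraries. YWHAE over YWHAZ, the top pair, was 1.73, 1.85 and 1.79 in siRBCK1 libraries against 1.39, 1.35 and 1.49 in siControl libraries. A ratio within a library is not moved by a scaling that multiplies the whole library. Quantile normalization and removal of the length and GC trend do not act in that way and can move it. With that trend removed, the log2 fold changes of YWHAQ and SFN lay closer (-0.00 and -0.13, against 0.13 and -0.21 as deposited). Those of YWHAB and YWHAH lay further apart (-0.87 and 0.22, against -0.69 and 0.26).

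The family as a whole summed to 1726, 1678 and 1724 FPKM in siRBCK1 libraries and to 1875, 1822 and 1858 FPKM in siControl libraries. The siRBCK1 sums were all lower, with a ratio of means of 0.923. Quantile normalization put this ratio at 1.008 and trimmed-mean scaling at 0.845, so its side of 1 depends on the scaling. As a share of all FPKM in a library the family made up 0.294%, 0.282% and 0.292% in siRBCK1 libraries and 0.297%, 0.297% and 0.282% in siControl libraries, which overlap.

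The shares within the family are not moved by a factor that multiplies a whole library, and every share other than that of SFN was without overlap between the groups. The shares add up to the whole family, so they are not separate changes, and a fall of some members raises the shares of others. The share of YWHAE was higher in siRBCK1 cells although its FPKM overlapped between the groups. YWHAB made up 7.19 ± 0.208% of the family in siRBCK1 cells and 10.7 ± 0.173% in siControl cells (SD, n = 3 each), and YWHAZ 19.4 ± 0.586% in siRBCK1 cells and 22.8 ± 0.419% in siControl cells. YWHAG made up 3.004 ± 0.0900% in siRBCK1 cells and 1.75 ± 0.230% in siControl cells, and YWHAH 6.41 ± 0.190% in siRBCK1 cells and 4.98 ± 0.674% in siControl cells. YWHAQ made up 16.5 ± 0.364% in siRBCK1 cells and 13.9 ± 0.344% in siControl cells. YWHAE was the largest share, with 34.7 ± 0.182% in siRBCK1 cells and 32.1 ± 0.989% in siControl cells, and SFN, at 12.9 ± 0.496% in siRBCK1 cells and 13.8 ± 0.591% in siControl cells, overlapped between the groups. YWHAB, YWHAZ and SFN together summed to 674 ± 10.2 FPKM in siRBCK1 cells and 876 ± 12.9 FPKM in siControl cells, which was 39.5% of the family in siRBCK1 cells and 47.3% in siControl cells. YWHAG, YWHAH and YWHAQ together summed to 442 ± 13.3 FPKM in siRBCK1 cells and 382 ± 20.9 FPKM in siControl cells, which was 25.9% of the family in siRBCK1 cells and 20.6% in siControl cells. These sums were grouped by the direction of the members' own changes and are a description.

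**Figure D3:**
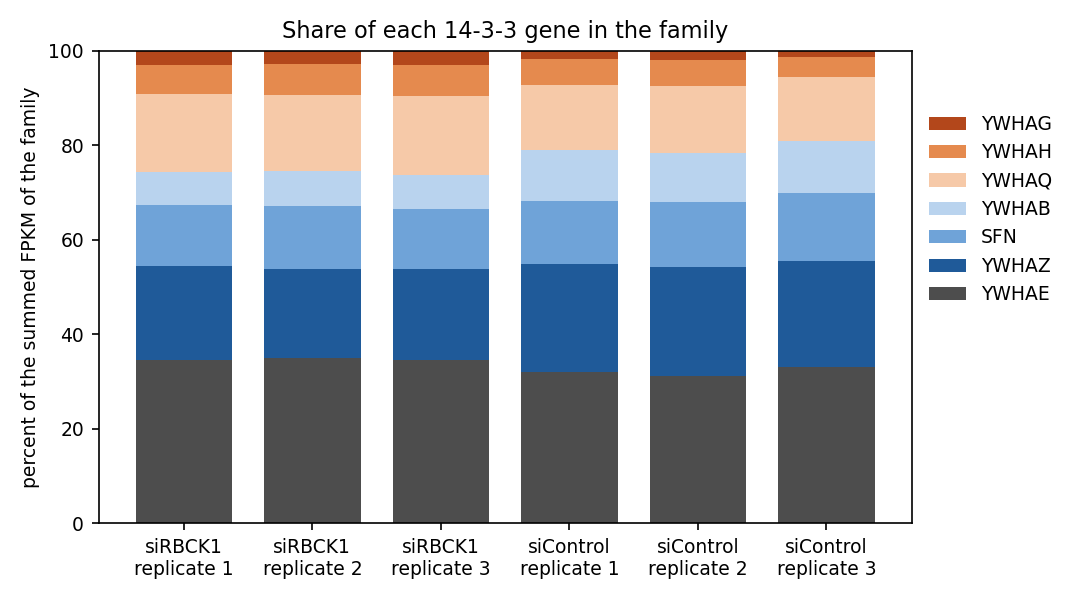
Stacked bars of the percent of the summed FPKM of the family that each member made up in each library, siRBCK1 libraries left of siControl libraries. The 3 orange shades, which are YWHAG, YWHAH and YWHAQ, reach 25.5% to 26.3% in siRBCK1 libraries and 19.3% to 21.6% in siControl libraries, and the 3 blue shades, which are YWHAB, SFN and YWHAZ, are smaller in siRBCK1 libraries.

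The members that changed were compared by their proteins, translated from the coding sequences of GENCODE 29 and aligned over their whole length. The proteins have 245 to 255 residues. YWHAB and YWHAZ, which both fell, were the most alike of the 21 pairs, identical at 214 of 244 aligned positions (87.7%). YWHAG and YWHAH, which both rose, though YWHAH lost its call in some settings, followed with 214 of 246 positions (87.0%). YWHAB and YWHAQ came next with 82.0%. They moved in opposite directions as deposited, where YWHAQ had a log2 fold change of 0.00 after trimmed-mean scaling and 0.23 after quantile normalization. The next pairs, YWHAQ and YWHAZ (79.6%), YWHAB and YWHAG (77.4%) and YWHAB and YWHAH (77.3%), also moved in opposite directions as deposited. Whether likeness of the proteins goes with the direction of change was not tested. YWHAE and SFN were the least alike with 60.5%. The genes of YWHAG and YWHAH have 2 exons and those of YWHAB, YWHAE, YWHAQ and YWHAZ 6. Reads of near-identical pseudogenes can be counted to a member or be lost, and RefSeq lists 10 pseudogenes each for YWHAQ and YWHAZ, 7 for YWHAE and 2 for YWHAB, none of which matched a gene number analysed here, and none for YWHAG, YWHAH and SFN. How the authors treated such reads is not given in the sources used here.

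Genes whose values across the 6 libraries were most like those of YWHAG and YWHAB were looked up as a description. By Pearson r of log2(FPKM + 1), the nearest to YWHAG were STAT3 (r = 0.9998), SGMS1 (0.9997) and RUFY2 (0.9996), and the nearest to YWHAB were ASB2 (0.9991), SH3BP1 (0.9990) and COXFA4L3 (0.9989). STAT3 is a transcription factor downstream of cytokine receptors, and SGMS1 makes sphingomyelin. The 6 points fall into 2 groups of 3 libraries, so any gene that differs between the groups by much more than its spread comes close to such values.

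Of 60 client genes, 57 were tested, and 26 were higher, 11 lower and 20 did not pass, where 36.8% of all tested genes were higher and 17.1% lower. After trimmed-mean scaling 16 clients were higher and 15 lower, where 2665 of the 11135 tested genes were higher and 2920 lower. The median log2 fold change of the clients was 0.19 as deposited. YAP1, the Hippo client that the study is about, was at 24.2, 21.4 and 23.2 FPKM in siRBCK1 libraries and at 11.4, 12.2 and 9.36 FPKM in siControl libraries. All siRBCK1 libraries exceeded all siControl libraries, by 1.00 on the log2 scale (standard error 0.09, limma adjusted p = 1.51e-05). WWTR1, which encodes the YAP paralogue TAZ, was at 9.45, 9.22 and 9.11 FPKM in siRBCK1 libraries and at 9.16, 8.55 and 7.91 FPKM in siControl libraries, with overlap (log2 fold change 0.11, adjusted p = 0.240 by limma), and its sign turned under the 3 other scalings.

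TBC1D4, a Rab GTPase-activating protein that AKT phosphorylates to release glucose transporters, averaged 6.80 ± 0.257 FPKM in siRBCK1 cells and 3.16 ± 0.472 FPKM in siControl cells (log2 fold change 0.91). SSH1, a cofilin phosphatase, averaged 8.21 ± 0.151 FPKM in siRBCK1 cells and 4.89 ± 0.965 FPKM in siControl cells (0.66). Both were higher, with adjusted p of 3.56e-05 and 0.000686 by limma. ARAF, a RAF kinase, averaged 34.3 ± 0.845 FPKM in siRBCK1 cells and 55.4 ± 3.21 FPKM in siControl cells (-0.67). RIN1, a RAS effector, averaged 19.8 ± 1.27 FPKM in siRBCK1 cells and 30.1 ± 1.36 FPKM in siControl cells (-0.58). ARHGEF2, an activator of RhoA, averaged 13.0 ± 0.461 FPKM in siRBCK1 cells and 18.8 ± 3.15 FPKM in siControl cells (-0.49). These 3 were lower, with adjusted p of 9.71e-06, 5.76e-05 and 0.00271 by limma.

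Of the 28 kinase genes whose products write 14-3-3 docking sites, 26 were in the tables and tested, and 16 were higher, 4 lower and 6 did not pass, with a median log2 fold change of 0.32, against 36.8% higher, 17.1% lower and a median of 0.11 over all tested genes. After trimmed-mean scaling 14 kinase genes were higher and 5 lower, where 2665 of the 11135 tested genes were higher and 2920 lower. CHEK2, a DNA damage kinase, stood at 9.21, 8.69 and 9.59 FPKM in siRBCK1 libraries and at 4.91, 4.77 and 4.14 FPKM in siControl libraries (log2 fold change 0.86, adjusted p = 1.96e-05 by limma). AKT1, which phosphorylates BAD and the FOXO factors, averaged 81.4 ± 0.777 FPKM in siRBCK1 cells and 54.7 ± 1.20 FPKM in siControl cells (0.57). MAPKAPK2, a kinase downstream of p38, averaged 34.9 ± 0.558 FPKM in siRBCK1 cells and 51.0 ± 6.37 FPKM in siControl cells (-0.53), and PRKACA, a catalytic subunit of protein kinase A, 69.4 ± 3.13 FPKM in siRBCK1 cells and 97.4 ± 0.133 FPKM in siControl cells (-0.48). SIK3 was lower as well (-0.32). Each of these genes was past the test, with adjusted p between 9.08e-06 and 0.00824 by limma.

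The LATS kinases, which write the docking site on YAP and TAZ, were at low levels. LATS1 stood at 2.21, 1.93 and 2.20 FPKM in siRBCK1 libraries and at 1.59, 1.63 and 1.19 FPKM in siControl libraries (log2 fold change 0.34, adjusted p = 0.0123 by limma). LATS2 stood at 5.50, 4.99 and 5.28 FPKM in siRBCK1 libraries and at 3.78, 3.92 and 3.22 FPKM in siControl libraries (0.43, adjusted p = 0.00181). Neither overlapped between the groups, and the call for LATS1 was lost after quantile normalization (adjusted p = 0.0579 by limma) and with the length and GC trend removed (0.221).

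Of 11 genes for phosphatases that take docking phosphates off, all were tested, and 5 were higher, 1 was lower and 5 did not pass, where 36.8% of all tested genes were higher and 17.1% lower. Their median log2 fold change of 0.11 was that of all tested genes. PPP1CB, a catalytic subunit of protein phosphatase 1, averaged 28.3 ± 0.904 FPKM in siRBCK1 cells and 18.01 ± 1.23 FPKM in siControl cells (0.63, adjusted p = 3.45e-05 by limma), whereas PPP1CA, another catalytic subunit of it, averaged 222.5 ± 3.14 FPKM in siRBCK1 cells and 293 ± 24.8 FPKM in siControl cells (-0.39, adjusted p = 4.39e-04). PPP2R2A, a regulatory subunit of protein phosphatase 2A, and PPP3CB, a catalytic subunit of calcineurin, were higher by 0.46 and 0.37. After trimmed-mean scaling 4 phosphatase genes were higher and 4 lower, where 2665 of the 11135 tested genes were higher and 2920 lower.

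**Figure D4:**
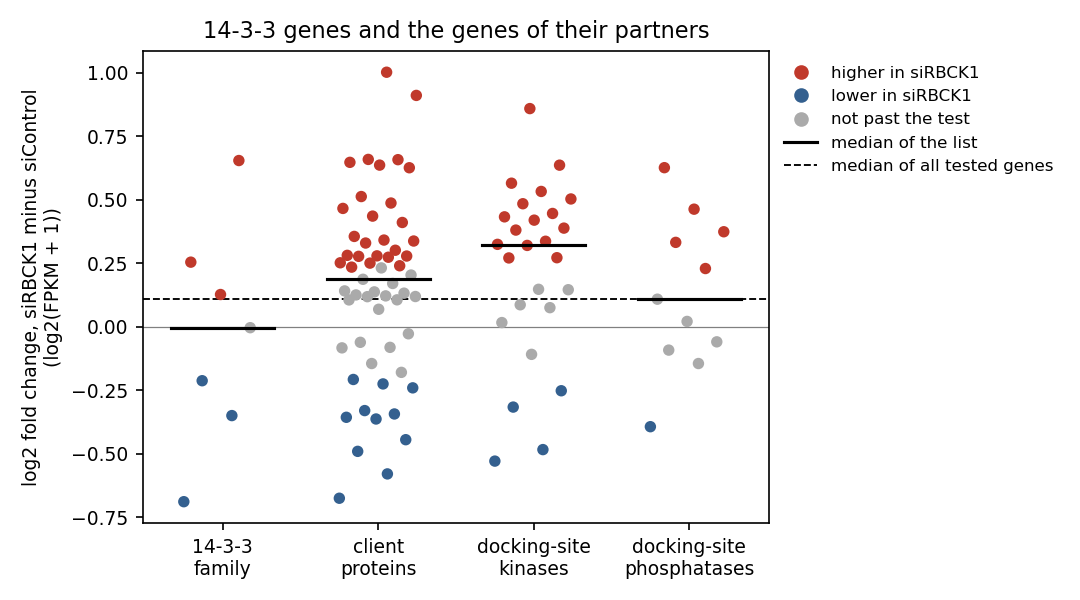
log2 fold change of log2(FPKM + 1), siRBCK1 minus siControl, with a point for each tested gene of the family and of its partner lists, red where higher, blue where lower and grey where the test was not passed. The solid bar is the median of each list (-0.00 for the family, 0.19 for clients, 0.32 for kinases and 0.11 for phosphatases) and the dashed line that of all tested genes (0.11).

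Of the 6 genes known to act on SFN, 5 were tested. BRCA1, a DNA repair protein and co-activator of SFN transcription, averaged 6.95 ± 0.343 FPKM in siRBCK1 cells and 4.28 ± 0.265 FPKM in siControl cells (log2 fold change 0.59, adjusted p = 1.58e-04 by limma). DNMT1, the maintenance DNA methyltransferase, averaged 40.4 ± 0.490 FPKM in siRBCK1 cells and 32.7 ± 5.36 FPKM in siControl cells (0.31, adjusted p = 0.0199), a call lost without siRBCK1 replicate 3 (0.0521), with no filter (0.0731), after quantile normalization (0.24, adjusted p = 0.0521) and with trimmed-mean scaling (0.19, adjusted p = 0.0926). COP1, a ubiquitin ligase for SFN protein, averaged 12.2 ± 0.6001 FPKM in siRBCK1 cells and 14.1 ± 0.924 FPKM in siControl cells (-0.20, adjusted p = 0.0375), a call lost without any one library other than siControl replicate 3 (adjusted p up to 0.143), with no filter (0.0570) and with the replicate block (0.0691). COP1 was further below 0, and past the limma test, with quantile normalization (-0.31, adjusted p = 0.00294), trimmed-mean scaling (-0.32, adjusted p = 0.00277) and the length and GC trend removed (-0.31, adjusted p = 0.00292). TRIM25, a ubiquitin ligase for the same protein, averaged 19.5 ± 1.18 FPKM in siRBCK1 cells and 18 ± 2.03 FPKM in siControl cells and did not pass (0.11, adjusted p = 0.276 by limma). TP63, which encodes an epithelial transcription factor, was under the minimum level, at 0.15, 0.10 and 0.19 FPKM in siRBCK1 libraries and 0.09, 0.07 and 0.02 FPKM in siControl libraries.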

How the data were processed

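RNA from MDA-MB-231 cells was sequenced with BGISEQ-500 protocols in 6 libraries, 3 siRBCK1 and 3 siControl. The deposited values are FPKM with 2 decimals, and GRCh38 is the build named in the submitters' processing notes. The aligner, quantifier, annotation and use of strand were not given in the sources used here. FPKM carry no read totals and whole reads were not recovered, so the depth behind each value is unknown. FPKM sums ranged from 587248.4 to 659065.0, and every siControl sum was above every siRBCK1 sum. The siRBCK1 replicate 2 table has replicate 1's name in its header, but 0.548% of tested genes had identical values, so it was kept. Of 17149 gene numbers, 17022 were matched to a symbol.

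The 11135 genes with 1 FPKM or more in 3 libraries or more were analysed on the log2(FPKM + 1) scale by limma 3.58.1 (R 4.3.3; intensity trend, two-sided test). Benjamini-Hochberg adjustment covered all of them, with a threshold of 0.05. Low genes have their changes understated on this scale. The statistics were tested on simulated data with few changed genes and no shift between the groups. These data differ from that setting, so the simulation says nothing of the effect of scaling. Alternatives were a pseudocount of 0.1, a minimum of 5 FPKM or none, 2 other library scalings (quantile and trimmed mean), a replicate block and leaving out each library. A fit without the trend with transcript length and GC content (99.4% of tested genes) was added after seeing the data. The members and gene lists were chosen with earlier results of these data known. The text names all members, RBCK1, YAP1, WWTR1, LATS1, LATS2, the regulators of SFN, the 3 genes most like the members with the largest rise and fall, and from each list up to 3 rises and 3 falls past the test, if a group averaged 5 FPKM or more. Some genes that the rule names are not reported here. The other line markers and YWHAH-AS1 were named outside this rule. Promoters and gene positions came from RefSeq (GRCh38.p14), and proteins were translated from GENCODE 29 in Python 3.11.15.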

Additional observations from a re-analysis of the deposited data

How the results depend on the processing

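Under every setting tried, YWHAB, YWHAZ and SFN stayed lower and YWHAG higher with their calls. With 1 library left out, YWHAB lay between -0.71 and -0.67, YWHAZ between -0.38 and -0.32, SFN between -0.23 and -0.18 and YWHAG between 0.55 and 0.73 on the log2 scale. The count of lower members was 4 with the length and GC trend removed, where YWHAE joined, and 3 in the other settings. The count of higher members was 1 with no filter, after trimmed-mean scaling and with the length and GC trend removed, and 1 to 2 with 1 library left out. YWHAH was at 0.26 with no filter (adjusted p = 0.0834 by limma), 0.13 after trimmed-mean scaling (0.177), 0.22 with the length and GC trend removed (0.0598) and 0.14 to 0.32 with 1 library left out, where the call was lost without siRBCK1 replicate 2 (0.0556) or siRBCK1 replicate 3 (0.0807). YWHAQ was at 0.13 with no filter (0.0554), 0.0011 after trimmed-mean scaling (0.989), -0.0034 with the trend removed (0.945) and 0.11 to 0.16 with 1 library left out, where the call was kept only without siRBCK1 replicate 2 (0.0498). After quantile normalization YWHAQ was further above 0, at 0.23 (0.00371). Quantile normalization put YWHAE at 0.18 (0.00168), and it was at -0.12 with the trend removed (0.0432) and -0.034 to 0.023 with 1 library left out. WWTR1 turned to -0.047 (quantile), -0.0072 (trimmed mean) and -0.12 with the trend removed. The summed FPKM of the family had a ratio of 1.008 (quantile) and 0.845 (trimmed mean) under the other scalings, and 0.916 to 0.931 with 1 library left out. The causes of these moves were not tested.

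Higher clients numbered 17 with a filter of 5 FPKM, where fewer genes were tested, and 16 under trimmed-mean scaling, and 20 to 26 with 1 library left out. Lower phosphatase genes numbered 2 (quantile) and 4 (trimmed mean) under the other scalings, 5 with the trend removed and 1 to 2 with 1 library left out (2 without siControl replicate 3). Higher regulators of SFN numbered 1 with no filter and under either of the other scalings, and 1 to 2 with 1 library left out. Lower regulators of SFN numbered 1 with no filter and 1 to 2 with 1 library left out. Of all tested genes, 3067 of 7974 were higher with a filter of 5 FPKM. With no filter, 3807 of 17149 were higher and 1757 lower. Of 11135 genes, 2787 were higher and 2703 lower (quantile), and 2665 higher and 2920 lower (trimmed mean). With the trend removed, 2836 of 11072 were lower. With 1 library left out, 3166 to 4143 were higher and 1489 to 1981 lower.

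The replicate numbers shared between the groups carry no stated pairing. Deviations of same-numbered libraries correlated at -0.06, -0.19 and -0.04, and those of differently numbered libraries at -0.15 to 0.23. With 3 libraries per group these values cannot decide whether libraries of the 2 groups shared a batch. With the replicate block, 3812 genes were higher and 1739 lower in siRBCK1 cells, against 4103 and 1899 without it, YWHAQ was at 0.13 (adjusted p = 0.101 by limma) and 1 regulator of SFN was lower.

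Scaling moves the middle of all genes. As deposited the median log2 fold change was 0.11, with 4103 genes higher and 1899 lower in siRBCK1 cells. It was 0.01 under quantile normalization, with 2787 higher and 2703 lower, and 0.00 under trimmed-mean scaling, with 2665 higher and 2920 lower. With the trend removed it was also 0.00, with 2827 higher and 2836 lower. Counting error could not be given, because FPKM carry no read totals, and mRNA levels say nothing of 14-3-3 protein or its location.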
